A study of Mus musculus with 8 samples.

Results

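Npas4 was examined together with 4 relatives and partners, Npas1, Npas3, Arnt and Arnt2, which all encode transcription factors of the bHLH-PAS family. The 5 genes were taken by symbol from the count tables, which list 33885 symbols for each brain region, and a further 14 bHLH-PAS and PAS-containing coactivator genes served as the rest of the family. Total RNA had been sequenced from adult male C57Bl6J mice, an inbred strain, with 8 libraries in all and 2 for each of the 4 groups. One region was the nucleus accumbens (NAc), part of the ventral striatum, taken from mice that had explored a conditioned place preference chamber with intraperitoneal cocaine at 7.5 mg/kg, and from mice left in the home cage. The medial prefrontal cortex (mPFC) came from mice that had been through social defeat by an aggressive CD1 male, and from home-cage mice. Tissue was dissected 15 min after the experience. The labels name no saline or chamber-only group, so cocaine cannot be told apart from the handling, injection and chamber that went with it. They also do not say whether the libraries of a group are separate animals or pools, so every p-value below rests on the spread between libraries alone, which may be technical.

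Proteins of the bHLH-PAS family bind DNA as dimers, in which an inducible or cell-restricted member pairs with a broadly expressed partner, most often ARNT or ARNT2. NPAS4 is a neuronal member whose gene is switched on within minutes by membrane depolarisation and calcium entry and does not need new protein synthesis, and it is known for tuning inhibitory and excitatory synapses to recent activity. NPAS1 and NPAS3 are neuronal relatives: NPAS1 has been described in mice in GABAergic neurons, NPAS3 in developing and adult brain, and neither is known as an immediate early gene.

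Library totals ranged from 111901829 to 179479978 counts, so that even the least abundant of the 5 genes, Npas1, had between 1007 and 2074 counts in a library. Levels are given as CPM, library-scaled counts that use TMM factors of all 8 libraries. The NAc libraries differed among themselves in regional markers. The summed level of the 8 striatal projection neuron markers was 2231 and 783.0 CPM in cocaine replicates 1 and 2 and 2746 and 732.3 CPM in NAc home-cage replicates 1 and 2, against 143.7 and 130.7 CPM in social defeat libraries and 135.6 and 137.6 CPM in mPFC home-cage libraries. The 8 cortical glutamatergic markers ran the other way, at 906.3 and 1380 CPM in the cocaine libraries and 742.0 and 1524 CPM in the NAc home-cage libraries. Both NAc libraries numbered 2 thus had a lower striatal and a higher cortical marker level than both numbered 1. In the mPFC the markers for blood stood apart, at 61.8 and 56.7 CPM after social defeat against 23.5 and 23.2 CPM in home-cage mice. Of the 4, 3 passed as higher, beside 0.549% of all genes tested. The 6 oligodendrocyte markers summed to 2402 and 2115 CPM in the cocaine libraries, against 2244 and 1256 CPM in the NAc home-cage libraries, and to 1029 and 1132 CPM in the social defeat libraries, against 1402 and 1167 CPM in the mPFC home-cage libraries. Both social defeat libraries were thus below both of their home-cage libraries, and none of the 6 passed in either comparison. Over all genes tested 0.0% passed after cocaine, and 0.549% as higher and 0.155% as lower after social defeat. No marker of the striatal, cortical or blood lists was at 0 counts throughout, and the microglial marker P2ry12 was listed at 0 in all 8 libraries.

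The short stretches below are shown because the promoters of Npas4 and of its partner Arnt both carry the core of the cAMP response element (CRE), the letters TGACG or, on the other strand, CGTCA, which CREB recognises. They come from RefSeq promoter windows on GRCm38.p6, which run from 250 bases before the start to 50 after it, and the capitals mark the CRE cores. The Npas4 stretch lies at chr19:4990128-4990157 on the minus strand, 186 to 157 bases before the RefSeq start, and the Arnt stretch at chr3:95434151-95434180 on the plus strand, 239 to 210 bases before the start.
Npas4: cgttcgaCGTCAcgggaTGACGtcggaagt
Arnt: TGACGTCAatttggttatgaatctcTGACG
The Npas4 stretch also falls inside the first exon of a longer GENCODE transcript, whose first base lies 345 bases before the RefSeq start, and the Arnt stretch touches no GENCODE exon of Arnt. A CRE core on either strand was in 21.0% of 27025 promoter windows, the first listed for each gene symbol, and at least 2 were in 5.20%, overlapping matches included. The Npas4 window held 2 CRE cores and no full CRE (TGACGTCA). In Arnt a full CRE, a motif found in 1.88% of windows, supplied 2 overlapping core matches, and the third match stood apart from it. The Npas1, Npas3 and Arnt2 windows held no CRE core, which says only that these letters are not in those 300 bases. A match is a description of the sequence, and no binding was measured here.

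Npas4, encoded at chr19:4984355-4990316 on the minus strand of GRCm38, was the member whose level stood apart between experience and home cage in both regions. After cocaine it stood at 44.7 and 49.7 CPM (6198 and 7093 counts), against 12.6 and 16.7 CPM (2228 and 2315 counts) in NAc home-cage libraries. After social defeat it stood at 79.4 and 69.7 CPM (10450 and 9798 counts), against 17.4 and 19.3 CPM (2360 and 2129 counts) in mPFC home-cage libraries. Every exposed library was above every home-cage library of either region, where 11.8% of all genes tested had both cocaine libraries above both NAc home-cage libraries and 16.4% had both social defeat libraries above both of theirs. The lowest cocaine library was still 2.67 times the highest NAc home-cage library, and the lowest social defeat library 3.62 times the highest mPFC home-cage library. In bulk tissue a change in the number of cells that express a gene and a change in RNA per cell cannot be told apart.

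**Figure D1:**
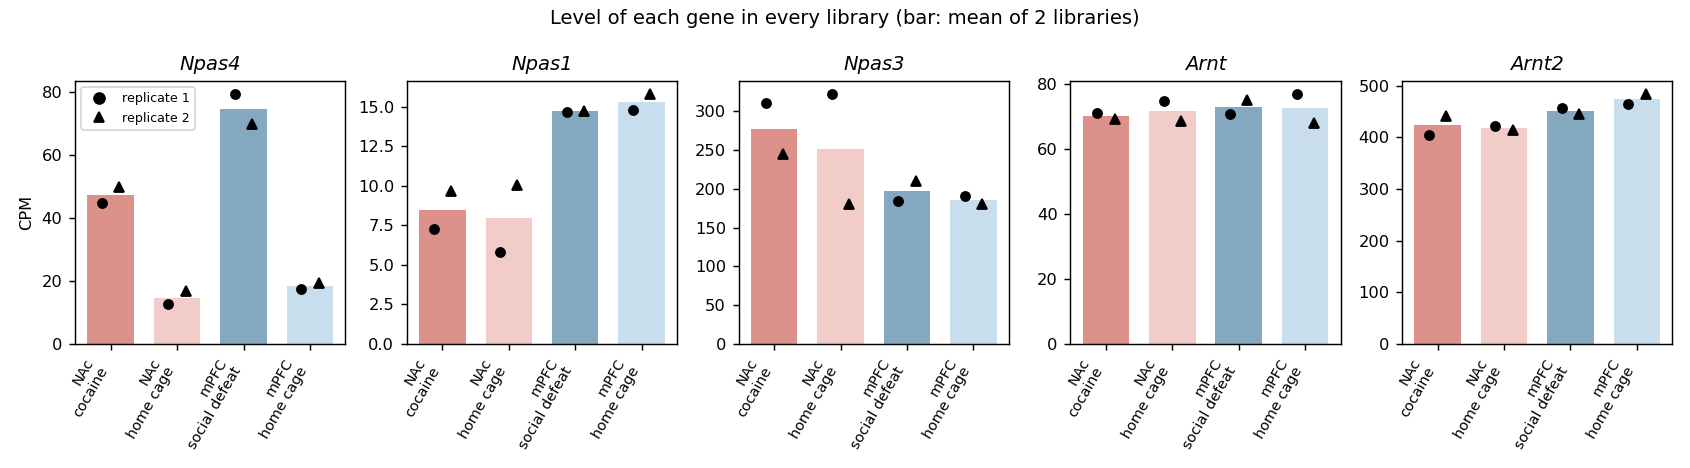
Level of the 5 genes in CPM (vertical axes, each from 0) in the 4 groups; bars are means of 2 libraries, circles are replicate 1 and triangles replicate 2. Npas4 is at 44.7 to 79.4 CPM in exposed libraries and at 12.6 to 19.3 CPM in home-cage libraries, whereas Arnt stays between 68.1 and 77.0 CPM in all 8.

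The mean of Npas4 was 47.2 ± 3.57 CPM after cocaine and 14.7 ± 2.93 CPM in NAc home-cage mice (SD, n = 2 each), a log2 fold change of 1.69 (SE 0.169) with a 95% interval of 2.36-fold to 4.41-fold. The mean was 74.6 ± 6.89 CPM after social defeat and 18.3 ± 1.33 CPM in mPFC home-cage mice (SD, n = 2 each), a log2 fold change of 2.03 (SE 0.0839) with an interval of 3.63-fold to 4.58-fold. Among genes with a mean of at least 1 CPM over the 8 libraries, this positive fold change ranked 3 of 14071 in the NAc and 4 of 14065 in the mPFC. Since the genes were chosen with Npas4 known to be induced, its tests are given as a description. In edgeR's quasi-likelihood test over all genes the Npas4 difference passed in the mPFC, with an adjusted p of 2.43e-28, and it did not pass in the NAc, where the unadjusted p was 3.31e-04 and the adjusted p was 1. No gene passed in the NAc in this edgeR fit (0.0% of 18418 tested), where 211 had an unadjusted p under 0.05. DESeq2 called 4 genes there, Npas4 among them with an adjusted p of 6.90e-12. With the number in the NAc titles as a block in the edgeR fit, 38 genes passed, Npas4 among them (adjusted p = 7.68e-08). No label says that this number marks a batch. In the mPFC 0.549% of 18027 genes passed as higher and 0.155% as lower, and Npas4 was the 1 member of 5 that passed. The blood and oligodendrocyte marker levels of the same mPFC libraries were given above, and their part in the Npas4 value was not tested.

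The cocaine response of Npas4 in the NAc and its social defeat response in the mPFC differed by -0.34 on the log2 scale (SE 0.203), with a 95% interval from -0.81 to 0.14, and edgeR gave an adjusted p of 0.9999 over all genes. The interval covers equal responses as well as a NAc response well below that of the mPFC. No gene passed this test of the difference (0.0% of 18783 tested), 415 had an unadjusted p under 0.05, and DESeq2 called 2. Exposure and region change together in this design, so their parts in the difference cannot be told apart. In home-cage mice Npas4 was at 14.7 ± 2.93 CPM in the NAc and 18.3 ± 1.33 CPM in the mPFC (SD, n = 2 each), a log2 difference of -0.32 (SE 0.165, edgeR adjusted p = 0.25). Both NAc libraries were below both mPFC libraries, as in 31.2% of the 18300 genes tested. Without NAc home-cage replicate 1 the difference was -0.13, and without replicate 2 it was -0.55, so its size rested on single libraries.

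Arnt and Arnt2 encode the partners with which NPAS4 can form a dimer, and neither passed the test after either experience. Arnt, at chr3:95434388-95497240 on the plus strand, was at 70.9 and 69.2 CPM after cocaine, against 74.9 and 68.7 CPM in NAc home-cage mice. It was at 70.8 and 74.9 CPM after social defeat, against 77.0 and 68.1 CPM in mPFC home-cage mice. In both regions the groups overlapped. The log2 fold change was -0.03 (SE 0.0869) after cocaine and 0.01 (SE 0.0777) after social defeat, with 95% intervals of 0.832-fold to 1.15-fold and 0.903-fold to 1.12-fold, and the edgeR adjusted p-values were 1 and 0.998.

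Arnt2, the partner enriched in neurons, lies at chr7:84246278-84410176 on the minus strand. Its level was 405.6 and 442.5 CPM after cocaine, against 421.7 and 413.8 CPM in NAc home-cage mice, with overlapping groups and a log2 fold change of 0.02 (SE 0.111). In the mPFC it was 457.2 and 445.6 CPM after social defeat, against 463.9 and 485.1 CPM in home-cage mice. There both exposed libraries were below both home-cage libraries, which 17.8% of all genes tested also showed, and the log2 fold change of -0.07 (SE 0.0804, 95% interval 0.852-fold to 1.07-fold) did not pass (edgeR adjusted p = 0.980). Across the 8 libraries Arnt varied by 1.13-fold from lowest to highest and Arnt2 by 1.20-fold, against 6.31-fold for Npas4. Ranked by the spread of log2 CPM over the 8 libraries among 13143 genes, from the most to the least variable, Npas4 was number 319, Arnt2 number 10999 and Arnt number 12201.

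The balance between Npas4 and its partners differed between exposed and home-cage mice in the same direction as Npas4 itself. For every 100 counts of Arnt2 there were 11.0 and 11.2 counts of Npas4 in the cocaine libraries, against 2.99 and 4.04 in the NAc home-cage libraries. There were 17.4 and 15.6 in the social defeat libraries, against 3.75 and 3.97 in the mPFC home-cage libraries. These ratios follow the change between libraries and do not compare the genes' levels, because the genes differ in length. Nor do RNA ratios give the amounts of the proteins.

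A comparison between genes needs the counts per length, and its outcome depended on which length was used. Per kilobase of annotated exons (GENCODE M21, CPM per kilobase) Npas4 averaged 11.4 ± 0.864 after cocaine and 3.55 ± 0.709 in NAc home-cage mice, and 18.0 ± 1.67 after social defeat and 4.43 ± 0.321 in mPFC home-cage mice (SD, n = 2 each). On the same scale Arnt averaged 8.75 after cocaine, 8.96 in NAc home-cage mice, 9.10 after social defeat and 9.06 in mPFC home-cage mice. On this scale Npas4 was above Arnt in all 4 exposed libraries, at 1.22 to 2.17 times its level, and below it in all 4 home-cage libraries, at 0.326 to 0.548 of it, an order that the gene-body lengths below do not give. By exons Arnt2 was 5.87 to 7.42 times Arnt in every library, and Npas4 reached at most 0.323 of Arnt2, in social defeat replicate 1.

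The gene bodies give another order. Introns make the gene body 1.44 times the exon length in Npas4, but 7.31 times in Npas1, 7.85 times in Arnt, 21.3 times in Arnt2 and 137 times in Npas3. Whether reads in introns were counted is not given in the sources used here, and in a total RNA library unspliced RNA can be present. Per kilobase of gene body Npas4 averaged 7.92 after cocaine, 2.46 in NAc home-cage mice, 12.5 after social defeat and 3.07 in mPFC home-cage mice, where Arnt2 averaged between 2.55 and 2.90. On that scale Npas4 was 3.03 and 3.09 times Arnt2 after cocaine, against 0.821 and 1.11 times in NAc home-cage mice, and 4.78 and 4.30 times after social defeat, against 1.03 and 1.09 times in mPFC home-cage mice. Npas4 was above Arnt in all 8 libraries by gene body, at 6.64 and 7.58 times after cocaine, against 1.77 and 2.57 times in NAc home-cage mice, and at 11.8 and 9.81 times after social defeat, against 2.38 and 2.98 times in mPFC home-cage mice. Arnt2 was 2.16 to 2.73 times Arnt. The order of Npas4 and Arnt2 is therefore not settled by these tables, in exposed or in home-cage mice. Nor is that of Npas4 and Arnt in home-cage mice. Fold changes between libraries do not depend on the length.

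**Figure D2:**
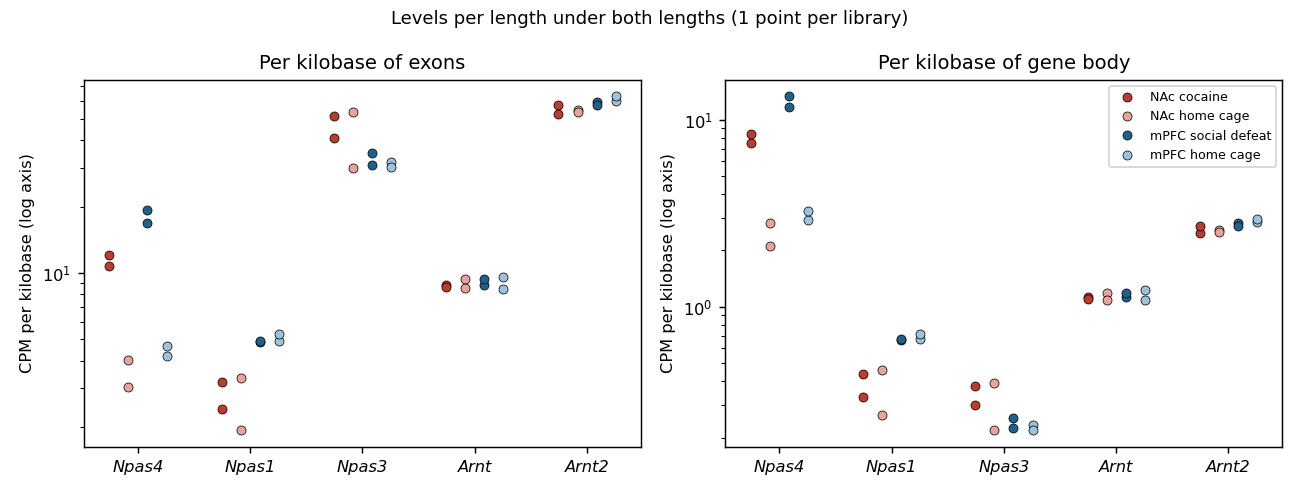
Levels of the 5 genes as CPM per kilobase on log axes, 1 point per library, per kilobase of exons on the left and per kilobase of gene body on the right; colours give the 4 groups. By exons Arnt2 is above Npas4 in every library. By gene body Npas4 is above Arnt2 in every library except NAc home-cage replicate 1.

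Among 18334 genes ranked by exon-based level, Npas4 took places 3969 and 3558 after cocaine, against 9292 and 8061 in NAc home-cage libraries. It took places 2203 and 2554 after social defeat, against 7838 and 7398 in mPFC home-cage libraries. Arnt2 was between places 459 and 557 in all 8 libraries and Arnt between places 4363 and 4904. These places rest on exon lengths, and by gene body Npas4 was above Arnt in the home-cage libraries too.

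The neuronal relatives Npas1 and Npas3 passed the test after neither experience. Npas1, at chr7:16455721-16477728 on the minus strand, was at 7.26 and 9.68 CPM after cocaine, against 5.83 and 10.1 CPM in NAc home-cage mice, with a log2 fold change of 0.09 (SE 0.313, edgeR adjusted p = 1). The cocaine values lay between the home-cage values, and the 95% interval of 0.597-fold to 1.91-fold leaves room for changes of nearly that size either way. In the mPFC it was at 14.7 and 14.8 CPM after social defeat, against 14.8 and 15.8 CPM in home-cage mice, and the log2 fold change was -0.06 (SE 0.0878, 95% interval 0.852-fold to 1.09-fold, edgeR adjusted p = 0.992). Both exposed libraries were just below both home-cage libraries, as for 17.8% of all genes tested, with 14.75 CPM in the higher social defeat library and 14.82 CPM in the lower home-cage library.

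Npas3, at chr12:53248677-54072175 on the plus strand, is the longest of the 5 genes. It was at 310.2 and 244.9 CPM after cocaine, against 323.0 and 180.2 CPM in NAc home-cage mice, and at 184.9 and 210.4 CPM after social defeat, against 191.3 and 180.7 CPM in mPFC home-cage mice. Groups overlapped in both regions. The log2 fold change was 0.14 (SE 0.318) after cocaine, with a 95% interval of 0.612-fold to 1.99-fold, and 0.09 (SE 0.0787) after social defeat, with an interval of 0.954-fold to 1.19-fold, and the edgeR adjusted p-values were 1 and 0.958. The upper limits for Npas1 and Npas3 stayed below the lower limit of 2.36-fold for Npas4 after cocaine, and below that of 3.63-fold after social defeat.

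Npas1 and Npas3 varied more between the NAc libraries of one group than between the means of the NAc groups, and in opposite ways. Npas1 in replicate 1 was 0.750 of replicate 2 in the cocaine group and 0.579 of it in the home-cage group. For Npas3 replicate 1 was 1.27 times replicate 2 in the cocaine group and 1.79 times in the home-cage group. Npas1 was thus lower, and Npas3 higher, in the NAc libraries with more striatal and less cortical marker RNA, a difference whose part in these values was not tested. The summed level of the 8 interneuron markers was 885.1 and 1143 CPM in the cocaine libraries and 785.4 and 1149 CPM in the NAc home-cage libraries. The sum was higher in replicate 2 in both groups, as Npas1 was. Lhx6 did not follow, at 16.27 CPM in both cocaine libraries and 15.66 and 15.14 CPM in NAc home-cage replicates 1 and 2. The other markers of the list were higher in replicate 2 in both groups. Across regions the sum did not run with Npas1. It was 793.8 and 755.7 CPM in social defeat libraries and 726.2 and 806.6 CPM in mPFC home-cage libraries. Npas1 was higher there than in any NAc library. Adarb2 was the largest part of the sum in the NAc, at 462.6 to 665.1 CPM, against 200.5 to 227.2 CPM in the mPFC. Cck was the largest part in the mPFC, at 259.1 to 323.6 CPM, against 108.4 to 210.0 CPM in the NAc. The median log2 difference of the 8 markers between NAc and mPFC of home-cage mice was -0.33, in the direction of Npas1. Of the 8, 2 passed as higher in the NAc and 2 as lower, beside 7.01% and 5.35% of all genes tested. Arnt, at 1.03 and 1.09 times, and Arnt2, at 0.917 and 1.02 times, differed little between the numbers. Npas4 in replicate 1 was 0.898 of replicate 2 in the cocaine group and 0.752 of it in the home-cage group, gaps smaller than its difference between cocaine and home cage.

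Between the regions of home-cage mice both Npas1 values in the NAc, 5.83 and 10.1 CPM, lay below both in the mPFC, 14.8 and 15.8 CPM. The log2 difference of -0.95 (SE 0.265, 95% interval -1.62 to -0.28) had an edgeR adjusted p of 0.0774 and did not pass, where 7.01% of 18300 genes passed as higher in the NAc and 5.35% as lower. The call rested on the setting: the adjusted p was 0.00582 with DESeq2 and 0.0269 without the filter on low counts. Leaving out NAc home-cage replicate 1 gave -0.60, and leaving out replicate 2 gave -1.40. Without mPFC home-cage replicate 1 or 2 it was -1.005 or -0.909. Such a fit takes its spread mainly from the group that keeps 2 libraries, so its adjusted p is not given here.

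Npas3 had a regional difference of 0.43 (SE 0.275, edgeR adjusted p = 0.339), with 323.0 and 180.2 CPM in the NAc against 191.3 and 180.7 CPM in the mPFC. It was -0.04 without NAc home-cage replicate 1, and without replicate 2 it was 0.79, so its direction rested on 1 library. Arnt2 had a log2 difference of -0.19 between NAc and mPFC (SE 0.111, edgeR adjusted p = 0.315) and Arnt differed by -0.02 (SE 0.111, adjusted p = 0.934). None of the 5 genes passed in this comparison. The regions were deposited in separate tables, so region and any difference in processing cannot be told apart.

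The rest of the family showed no call after either experience, which is near the share over all genes tested. That share was 0.0% after cocaine, and 0.549% as higher and 0.155% as lower after social defeat. Of the 14 other genes 13 were tested, and Sim1, a hypothalamic factor with 1 to 6 counts in a library, was below the filter on low counts. Their median log2 fold change was 0.01 after cocaine and -0.03 after social defeat, beside -0.01 and -0.00281 over all genes tested. They include the circadian factors Clock, Npas2, Arntl and Arntl2, the hypoxia factors Hif1a, Epas1 and Hif3a, the dioxin receptor Ahr and its repressor Ahrr, and the coactivators Ncoa1, Ncoa2 and Ncoa3. The largest values were those of genes with wide intervals, 0.29 (SE 0.352) for Hif3a after cocaine and -0.31 (SE 0.316) for Sim2 after social defeat.

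**Figure D3:**
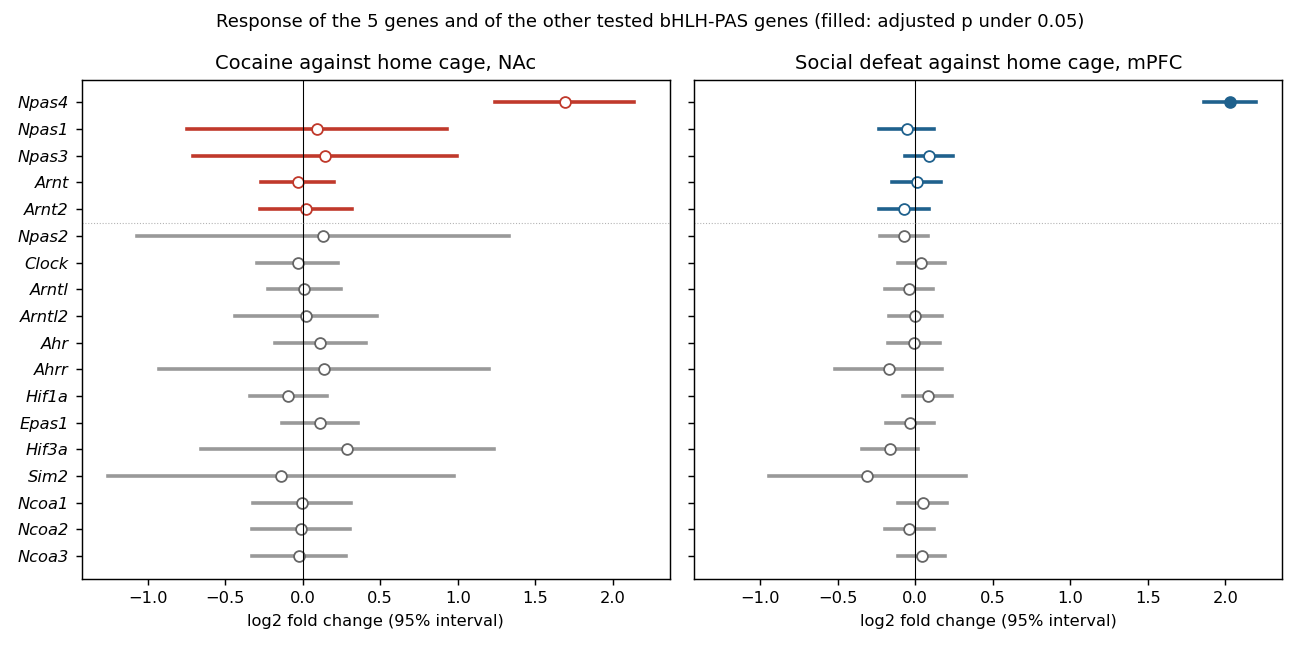
Log2 fold changes with 95% intervals of the 5 genes (coloured, above the dotted line) and of the 13 other tested bHLH-PAS genes (grey), after cocaine in the NAc on the left and after social defeat in the mPFC on the right; filled points passed at an adjusted p under 0.05. Npas4 stands at 1.69 and 2.03, and the other 17 intervals all include 0 in both panels.

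In the regional comparison 1 of the 13 passed, a share close to that of all genes (7.01% higher and 5.35% lower). It was Ahr, which was lower in the NAc at 10.1 and 10.8 CPM than in the mPFC at 20.2 and 19.4 CPM (log2 difference -0.93, SE 0.104, edgeR adjusted p = 0.00961). Without mPFC home-cage replicate 1 or 2 no gene passed in this comparison, and the adjusted p of Ahr was 0.177 and 0.161. Npas2, the closest relative of Clock, showed the same division of the NAc libraries as Npas3. It was at 393.7 and 239.3 CPM after cocaine, against 395.1 and 183.3 CPM in NAc home-cage mice, and between 186.9 and 204.3 CPM in the 4 mPFC libraries. Npas2 replicate 1 was thus 1.65 times replicate 2 in the cocaine group and 2.16 times in the home-cage group.

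**Figure D4:**
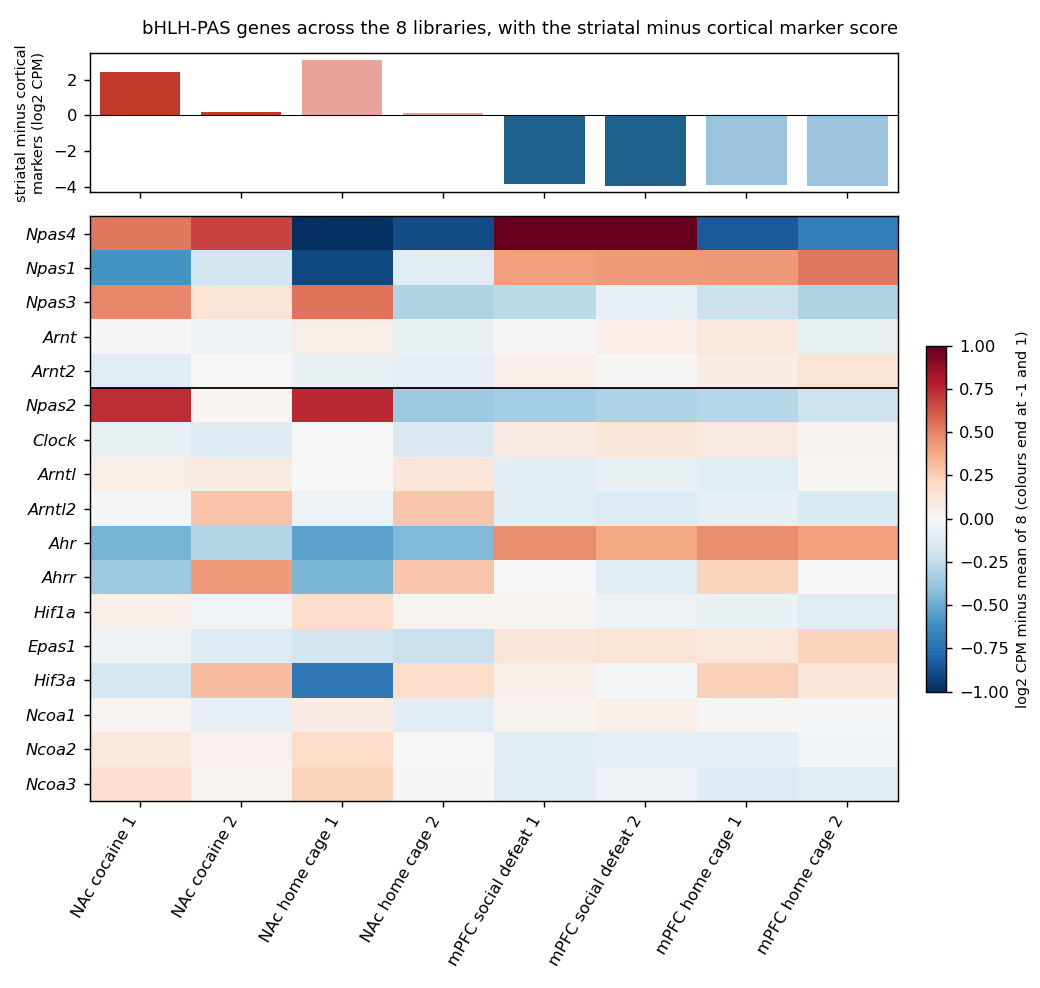
Log2 CPM of the 5 genes and of 12 other bHLH-PAS genes with a mean of at least 1 CPM, each minus its mean over the 8 libraries (colour scale ending at -1 and 1), under bars of the striatal minus cortical marker score, a difference of mean log2 CPM. The score is 2.45 and 0.18 in cocaine libraries, 3.11 and 0.11 in NAc home-cage libraries and between -3.95 and -3.83 in the mPFC, and Npas2 and Npas3 are highest in the NAc libraries with the highest score.

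Genes whose products are known to act on Npas4 gave no call after either experience. Of the 10 upstream regulators tested, the transcription factors Srf, Mef2a, Mef2c, Mef2d and Creb1, the CREB coactivator Crtc1, the L-type calcium channel gene Cacna1c, the kinase gene Camk4, the repressor Rest and the glucocorticoid receptor gene Nr3c1, none passed after cocaine or after social defeat. No call in 10 genes is near the share over all genes tested. That share was 0.0% after cocaine, and 0.549% as higher and 0.155% as lower after social defeat. The median log2 fold change of the 10 was -0.03 after cocaine and 0.04 after social defeat, beside -0.01 and -0.00281 over all genes tested. After social defeat Mef2a had the largest value, 0.17 (SE 0.0828, edgeR adjusted p = 0.669). Between the regions Cacna1c was higher in the NAc, with a log2 difference of 1.27 (SE 0.143, edgeR adjusted p = 0.00963), and Mef2c was lower, with -1.52 (SE 0.181, adjusted p = 0.0108). Without mPFC home-cage replicate 1 or 2 their edgeR adjusted p-values were 0.198 and 0.159 for Cacna1c and 0.165 and 0.150 for Mef2c.

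A list of 11 genes described as NPAS4 targets in neurons had 10 tested members, and Csrnp1 was listed at 0 counts in all 8 libraries. After social defeat 4 of the 10 passed as higher and none as lower, beside 0.549% and 0.155% of all genes tested. The median log2 fold change of the 10 was 0.16, beside -0.00281 over all genes. The list was chosen with earlier results of these data known, so the count is a description. Among the 4, Nr4a1 is also counted among the 10 immediate early genes below. Nr4a1, an orphan nuclear receptor that is itself an immediate early gene, was at 194.4 and 204.4 CPM, against 98.1 and 103.6 CPM in mPFC home-cage mice (log2 fold change 0.99, SE 0.0766, edgeR adjusted p = 1.28e-15). Homer1, which encodes a postsynaptic scaffold, was at 435.7 and 528.9 CPM, against 271.3 and 255.4 CPM in home-cage mice (log2 fold change 0.88, SE 0.0849, edgeR adjusted p = 7.90e-12). The prohormone convertase gene Pcsk1 had a log2 fold change of 0.62 (SE 0.0782, edgeR adjusted p = 3.06e-08).

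Bdnf, the neurotrophin gene most often named as an NPAS4 target, was at 38.7 and 38.4 CPM after social defeat, against 28.8 and 30.1 CPM in home-cage mice (log2 fold change 0.39, SE 0.0794, edgeR adjusted p = 0.00179). The groups did not overlap, and without social defeat replicate 1 or 2 the edgeR adjusted p was 0.0987 or 0.123. With the spread estimated over all 8 libraries none of the 4 targets passed, and the lowest edgeR adjusted p was 0.156, for Homer1. Only 5 of all 18783 genes tested passed in that fit. Among the targets that did not pass after social defeat, the synaptic kinase gene Plk2 had 0.20 (edgeR adjusted p = 0.431), the pentraxin gene Nptx2 -0.06 and the synaptotagmin gene Syt10 -0.06.

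After cocaine none of the 10 tested target genes passed with DESeq2 or with edgeR without the block. That is near the share over all 18418 genes tested, of which 0.0% passed with that edgeR fit and 4 genes with DESeq2. With the NAc title number as a block in edgeR, Pcsk1 passed (log2 fold change 0.55, adjusted p = 0.0136), among 38 genes in all. The median log2 fold change of the 10 was 0.03, beside -0.01 over all genes tested. In 2 of the 10, Homer1 and Nr4a1, both cocaine libraries were above both NAc home-cage libraries, where 11.8% of all genes were so placed. Nr4a1 was at 95.6 and 100.8 CPM after cocaine, against 56.2 and 83.7 CPM in NAc home-cage mice, and Homer1 at 253.3 and 245.5 CPM, against 237.3 and 211.9 CPM. For Bdnf the cocaine libraries had 10.1 and 18.0 CPM and the NAc home-cage libraries 5.63 and 15.1 CPM, with overlapping groups and the higher value in replicate 2 of each. The difference between the cocaine and social defeat responses did not pass for any target gene, where 0.0% of 18783 genes passed with edgeR. For Homer1 this difference was -0.72 (SE 0.161, unadjusted p = 0.00268, edgeR adjusted p = 0.9999). With samples taken at 1 time, 15 min after the experience, the tables do not show the order in which these genes changed.

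Set beside 10 other rapid immediate early genes, Npas4 was near the top in both regions. This list too was chosen with earlier results of these data known. After cocaine all 10 were higher in both libraries than in both home-cage libraries, where 11.8% of all genes were so placed. None passed with edgeR without the block, where 0.0% of 18418 genes passed. With the NAc title number as a block in edgeR 7 of the 10 passed, among 38 genes in all. With DESeq2, which called 4 genes, 2 of the 10 passed, Egr2 (adjusted p = 1.19e-07) and Fosb (adjusted p = 0.00114). The median edgeR log2 fold change of the 10 was 0.73, against 1.69 for Npas4. The AP-1 gene Fos had a larger value, 1.73, with a larger SE of 0.656, and the zinc finger gene Egr2 had 1.25 (SE 0.131). After social defeat all 10 passed as higher, beside 0.549% of all genes tested, with a median of 1.61 against 2.03 for Npas4. There the antiproliferative gene Btg2, at 2.25 (SE 0.0927), and Fos, at 2.09 (SE 0.0874), were above Npas4. With the spread estimated over all 8 libraries 3 of the 10 passed, Dusp1, Egr2 and Fosb, and Npas4 passed with an edgeR adjusted p of 0.0131. In that fit 5 of all 18783 genes tested passed after social defeat.

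The genes nearest to Npas4 in pattern were sought by the root mean square difference of log2 CPM over the 8 libraries, each gene centred on its own mean, among 13142 candidates. They were Mir212 (0.240), Btg2 (0.279), Ccn1 (0.345), Junb (0.379), Dusp1 (0.466), Nr4a3 (0.519), Gadd45g (0.521) and Ier2 (0.527). The spread of Npas4 itself on this scale was 0.974. Mir212, a microRNA gene, stood at 4.29 CPM after cocaine and 1.98 CPM in NAc home-cage mice, and at 9.25 CPM after social defeat and 2.42 CPM in mPFC home-cage mice, as means of 2 libraries. The log2 fold changes of the 8 genes were between 0.67 and 1.91 after cocaine and between 0.81 and 2.68 after social defeat. Of the 8, Ccn1 alone had a larger fold change than Npas4 in the NAc. Of the 6 with a promoter window 5 held a CRE core, as did 21.0% of all windows, in genes chosen for this pattern. Arnt, which gave no call, held 3 matches, 2 of them overlapping. Npas1, Npas3 and Arnt2 held none, and of the 9 windows of other bHLH-PAS genes 0 held a CRE core. Any link between these letters and the pattern was not tested.

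**Figure D5:**
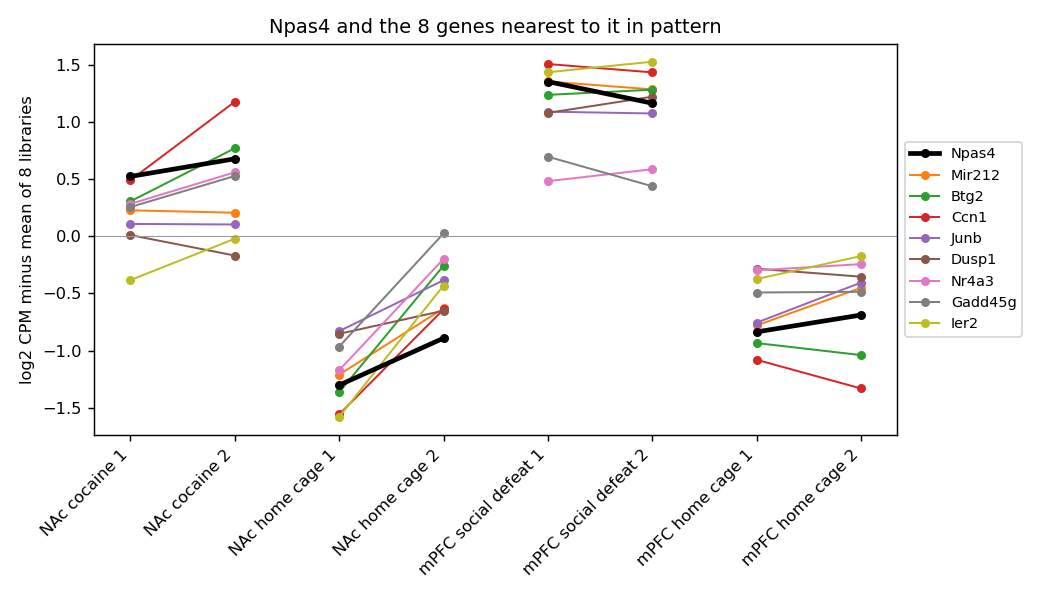
Log2 CPM minus the gene's mean over the 8 libraries for Npas4 (black) and the 8 genes nearest to it; a line joins the 2 libraries of a group. All 9 genes are higher in both social defeat libraries than in both mPFC home-cage libraries, and Npas4 is lower in home-cage libraries of both regions than in any exposed library.

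The relatives had other neighbours. Nearest to Npas1 were Tmem151b (0.0440), Coro2a (0.0482) and Map3k9 (0.0580), all with lower means in the NAc than in the mPFC, and nearest to Npas3 were Rgs20 (0.0554), Grm7 (0.0730) and Acer2 (0.0734), with higher means in the NAc. Arnt lay closest to Nup155, Rnf111 and Cbwd1 and Arnt2 to Sorbs2 and Ep400, with differences from 0.0185 to 0.0268. Arnt and Arnt2 themselves spread by 0.0624 and 0.0824 on this scale, below the median of 0.154 over the genes ranked.

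Some readings could be shared with other genes. GENCODE M21 places an antisense gene over 214 bases of Arnt2 exons and another over 83 bases of Npas3 exons, neither of which has a symbol in the tables, and the strand setting of the counting is not given in the sources used here. Reads from these stretches therefore cannot be assigned to a strand. For Npas4 no overlapping gene is annotated.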

How the data were processed

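Per the submitters' processing notes, reads of total RNA libraries were aligned to mm10 with STAR 2.7.1a and counted with featureCounts, and the authors deposited whole-number counts per gene symbol in 1 table per region, with no normalization. Not given in the sources used here are the featureCounts version, the gene annotation, and how the counting treated strand, introns and multimapping reads. Samples were grouped by their titles and treatment labels. The members, the gene lists and the tests were chosen with earlier results of these data known.

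Each comparison was fitted over all genes that passed filterByExpr, with TMM factors and glmQLFit and glmQLFTest of edgeR 4.0.16 (limma 3.58.1, R 4.3.3), and p-values were Benjamini-Hochberg adjusted over all genes tested, with a threshold of 0.05. DESeq2 1.42.0 was an alternative, with other size factors, no filter, each library left out, the title number as a block and a fit of all 8 libraries. The fit was tested on simulated data. Standard errors (SE) are the absolute log2 fold change over the square root of F, and 95% intervals use the t quantile of the fit's degrees of freedom. An exact two-sided permutation test of 2 against 2 libraries cannot go below 0.33, so no gene was tested outside these fits. Lengths came from GENCODE M21 for 32956 symbols. Tables and plots used python 3.11.15, numpy 2.4.6, scipy 1.17.1, pandas 2.3.3 and matplotlib 3.10.9.

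All members and all other bHLH-PAS genes could be named, with up to 4 tested genes of each other list by smallest p in a comparison, and the 8 genes nearest to Npas4 and the 3 nearest to each other member (log2 CPM with a prior count of 2, provisional gene models left out). Other genes of the lists were named after their values were seen. One gene that this rule would name is not reported here.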

Additional observations from a re-analysis of the deposited data

How the results depend on the processing

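Npas4 kept its direction in all 36 alternatives to its values. Its cocaine response was 1.69 with DESeq2 (adjusted p = 6.90e-12) and 1.70 with the replicate block (edgeR adjusted p = 7.68e-08), both past the threshold, and 1.498 to 1.907 with a library left out, where edgeR adjusted p-values were 0.424 to 1. Its social defeat response was 1.93 to 2.12 with a library left out, and had an edgeR adjusted p of 0.0131 in the fit of all 8 libraries. Its regional difference was -0.55 to -0.13 with a library left out. The NAc numbers are shared by both groups, and same-numbered NAc libraries deviated together (r = 0.57 across 18783 genes, which are not independent replicates), but no label says that a number marks a batch and there are 2 pairs. With the replicate block 38 genes passed after cocaine and 3 in the difference of responses. Among the 38 were 7 of the 10 immediate early genes (Btg2, Egr2, Fosb, Fos, Arc, Junb and Dusp1) and the target gene Pcsk1, with a log2 fold change of 0.55 and an edgeR adjusted p of 0.0136. DESeq2 called 4 genes after cocaine, 3683 between regions and 2 in the difference. After social defeat 127 genes passed, 5 with all 8 libraries in the fit and 58 (without social defeat replicate 2) to 238 (without mPFC home-cage replicate 1) with a library left out. Between regions 2262 passed, with 0 (without mPFC home-cage replicate 1 or 2) to 8048 (without NAc home-cage replicate 2) when a library was left out, and 5518 without NAc home-cage replicate 1. In the difference of responses 0 to 1 passed, the 1 without NAc home-cage replicate 1. Of the 144 alternatives for the other members 120 kept direction and side of the threshold, 5 crossed it and 19 turned round. The 19 and 3 of the 5 came from leaving out a library, and the other 2 were Npas1 between regions, with DESeq2 and with no filter. The ranges with a library left out were -0.25 to 0.54 for Npas1, -0.22 to 0.63 for Npas3, -0.10 to 0.031 for Arnt and -0.039 to 0.083 for Arnt2 after cocaine. They were -0.00585 to 0.18 for Npas3 and -0.082 to 0.10 for Arnt after social defeat, -0.043 to 0.79 for Npas3 and -0.11 to 0.067 for Arnt between regions, and -0.20 to 0.60 for Npas1, -0.31 to 0.52 for Npas3 and -0.14 to 0.043 for Arnt in the difference of responses. The cause was not tested. By gene body in place of exons the mean level over 8 libraries was 0.528 for Npas1, 0.277 for Npas3, 1.14 for Arnt and 2.696 for Arnt2, against 3.86, 37.99, 8.97 and 57.48 CPM per kilobase by exons. With 2 libraries a group and 1 left out, the lone library is assumed to vary like the others. Depth limited none of the 5 genes, whose lowest count was 1007, and Sim1 was too low to test.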
